A study of Mus musculus with 6 samples.

Results

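Genes of scavenger receptors and of the apparatus that takes up apoptotic cells were followed in dendritic cells grown from mouse bone marrow. They were chosen by name, as Msr1, Marco, Cd36, Cd68, Mertk, Axl, Gas6, Scarb1 and Olr1, and all 9 were found among the 23398 genes of the expression table. All 9 also passed the filter on low values, which 10682 genes passed. The cells had been treated for 12 hours with Ca(OH)2 nanoparticles (3 libraries) or with vehicle (3 libraries), and both groups were labelled as bone marrow derived dendritic cells of mice, grown in DMEM with fetal bovine serum, penicillin and streptomycin. The strain, age and number of the mice, the growth factor of the culture and the dose of the particles are not given in the sources used here. Nothing in the labels says that libraries of a group came from separate cultures, so the p-values measure the spread between these libraries, which may be technical.

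Scavenger receptors bind modified lipoproteins, microbial surfaces and particles and carry them into the cell. Msr1 and Marco are trimeric class A receptors with a collagen-like stalk, Cd36 and Scarb1 are class B receptors that also move lipids, Olr1 is a C-type lectin-like receptor for oxidized lipoprotein, and Cd68 is a heavily glycosylated protein of late endosomes and lysosomes. Mertk and Axl are TAM receptor tyrosine kinases, which recognise phosphatidylserine on dying cells through the bridging ligands Gas6 and Pros1 and restrain inflammatory signalling in phagocytes.

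Of the 9 genes, 2 rose with nanoparticles (Olr1 and Cd68), 2 fell (Gas6 and Scarb1) and 5 did not pass the test (Msr1, Marco, Cd36, Mertk and Axl). The test was limma's moderated test on log2(FPKM + 1), where FPKM is the reads per kilobase of exon relative to a library scale, with a Benjamini-Hochberg adjusted p under 0.05 over all tested genes as the threshold. Group means are given ± SD over 3 libraries (n = 3). Across all tested genes 33.2% passed, 17% higher and 16.2% lower, so the count among the 9 genes was close to that of the background. The groups did not overlap in 4 of the 9 genes, against 52.1% of all tested genes (25.9% with nanoparticles higher, 26.2% lower). The median log2 change of the 9 genes was -0.09, beside -0.0010 for all tested genes. As these are bulk libraries, fewer cells of a type and less RNA per cell cannot be told apart.

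Library depth, recovered as whole reads from the FPKM, was 17283419 to 18220320 reads in vehicle and 17791286 to 21978018 reads in nanoparticle libraries. Nanoparticle library 1 stood apart. Its correlation with the other nanoparticle libraries across genes was 0.942 and 0.928, against 0.990 between those libraries and 0.993 to 0.994 between vehicle libraries. Results that rest on it are given with and without it. Of the dendritic cell markers, Itgax and Cd74 were abundant in all libraries (at least 248 and 2270 FPKM), while Flt3 stayed under 1 FPKM. With nanoparticles 1 of 10 tested dendritic cell markers rose and 3 fell, beside 17% and 16.2% of all tested genes. Their log2 changes ran from -2.70 to 1.19. Of 12 macrophage markers, Lyz2 (11167 to 17124 FPKM) and Csf1r (133 to 175 FPKM) were abundant, while Vsig4 and Timd4 had no more than 3 reads in any library. Neutrophil markers summed to 266 to 299 FPKM in vehicle and 185 to 257 FPKM in nanoparticle libraries, with Ly6g and Mpo at no more than 3 reads. The sum hides opposite changes: of 4 tested neutrophil markers, 2 rose and 1 fell, beside 17% and 16.2% of all tested genes. Markers of T, NK and B cells summed to at most 0.439 FPKM in any library, and 6 of their 9 genes had no more than 3 reads anywhere. Stromal markers summed to 0.747 to 1.02 FPKM in vehicle and to 4.80, 1.97 and 1.55 FPKM in nanoparticle libraries 1 to 3, higher in all of these, with Col1a1 and Col1a2 at 3 reads or fewer throughout. The part of these markers in the results was not tested.

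The region before the start of transcription is shown for the members past the test that had an entry in the RefSeq promoter table. These were Olr1 and Cd68, which rose, and Gas6, which fell. Each window holds the 250 bases before the RefSeq start (GRCm38.p6), written 5′ to 3′ in the direction of the gene. The windows are chr6:129507166-129507415 for Olr1, chr11:69666171-69666420 for Cd68 and chr8:13494536-13494785 for Gas6, all on the minus strand. Capitals mark matches to the AP-1 letters TGANTCA, the PU.1 letters GAGGAA or the nuclear receptor half-site AGGTCA, on either strand.
Olr1: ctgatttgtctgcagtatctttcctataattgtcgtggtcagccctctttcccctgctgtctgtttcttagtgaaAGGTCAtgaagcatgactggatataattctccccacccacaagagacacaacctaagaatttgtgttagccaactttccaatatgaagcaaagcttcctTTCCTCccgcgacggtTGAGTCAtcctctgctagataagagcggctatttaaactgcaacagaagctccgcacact
Cd68: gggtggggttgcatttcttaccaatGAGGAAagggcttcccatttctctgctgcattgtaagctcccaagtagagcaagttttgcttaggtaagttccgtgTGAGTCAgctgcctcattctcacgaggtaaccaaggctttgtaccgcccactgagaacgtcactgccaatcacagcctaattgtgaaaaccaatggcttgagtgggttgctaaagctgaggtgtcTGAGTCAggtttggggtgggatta
Gas6: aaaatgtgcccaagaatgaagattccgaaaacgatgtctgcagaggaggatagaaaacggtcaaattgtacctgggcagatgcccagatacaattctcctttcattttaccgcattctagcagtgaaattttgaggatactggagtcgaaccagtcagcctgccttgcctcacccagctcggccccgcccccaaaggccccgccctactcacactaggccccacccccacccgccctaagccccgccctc
The AP-1 letters were found once in the Olr1 window, 60 to 54 bases before the start, and at 2 places in the Cd68 window, 149 to 143 and 24 to 18 bases before it. They were in 2 of the 7 windows found for the 9 genes (none was matched for Msr1 and Scarb1), beside 6.75% of 32817 windows of the same length. The PU.1 letters were in 4 of the 7 windows (Marco, Axl, Cd68 and Olr1, beside 23.3% of all windows) and the half-site in 2 (Cd36 and Olr1, beside 14%). No match to the interferon response letters GAAANNGAAA (2.97% of all windows) or to the NF-kappaB motif (7.25%) was present in these 7 windows. The motifs do not overlap in the printed windows. A match describes the letters and is not a binding site, and a window without one says nothing about the factor.

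Olr1 (ENSMUSG00000030162, chromosome 6, 129485244 to 129507165, minus strand, GENCODE M21 on GRCm38) encodes LOX-1, the lectin-like receptor for oxidized low density lipoprotein. It stood at 23.5, 22.8 and 24.4 FPKM in vehicle libraries 1 to 3 and at 209, 138 and 131 FPKM in nanoparticle libraries 1 to 3. Every nanoparticle library lay far above every vehicle library, and the value in nanoparticle library 1 was the highest. The means were 23.6 ± 0.779 and 159.5 ± 43.2 FPKM, a 6.77-fold rise and a log2 change of 2.68 (SE 0.193, adjusted p by limma 2.6e-04). Without nanoparticle library 1 the log2 change was 2.46 (adjusted p by limma 7.8e-07). Olr1 was thus the member with the largest change, and it moved from the fifth to the third place in the order of levels.

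Cd68 (ENSMUSG00000018774, chromosome 11, 69664213 to 69666153, minus strand) encodes macrosialin, which is widely used as a marker of macrophages and other phagocytes. It was at 300.1, 304 and 294 FPKM in vehicle libraries and at 589, 434 and 426 FPKM in nanoparticle libraries. The groups were apart, with nanoparticle library 1 again highest. The means of 299 ± 5.10 and 483 ± 91.9 FPKM gave a log2 change of 0.67 (SE 0.167, adjusted p by limma 0.0236). The call was lost when any 1 vehicle library was left out (adjusted p by limma 0.0930, 0.0942 and 0.103 without vehicle libraries 1, 2 and 3), but the change held without nanoparticle library 1 (log2 change 0.52, adjusted p by limma 1.4e-04). It also rests on the scaling of the libraries: relative to total reads, where the median of all genes moved to -0.28, the log2 change was 0.33 (adjusted p by limma 0.171), and with equal sums of FPKM it was 0.20 (adjusted p by limma 0.451).

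**Figure D1:**
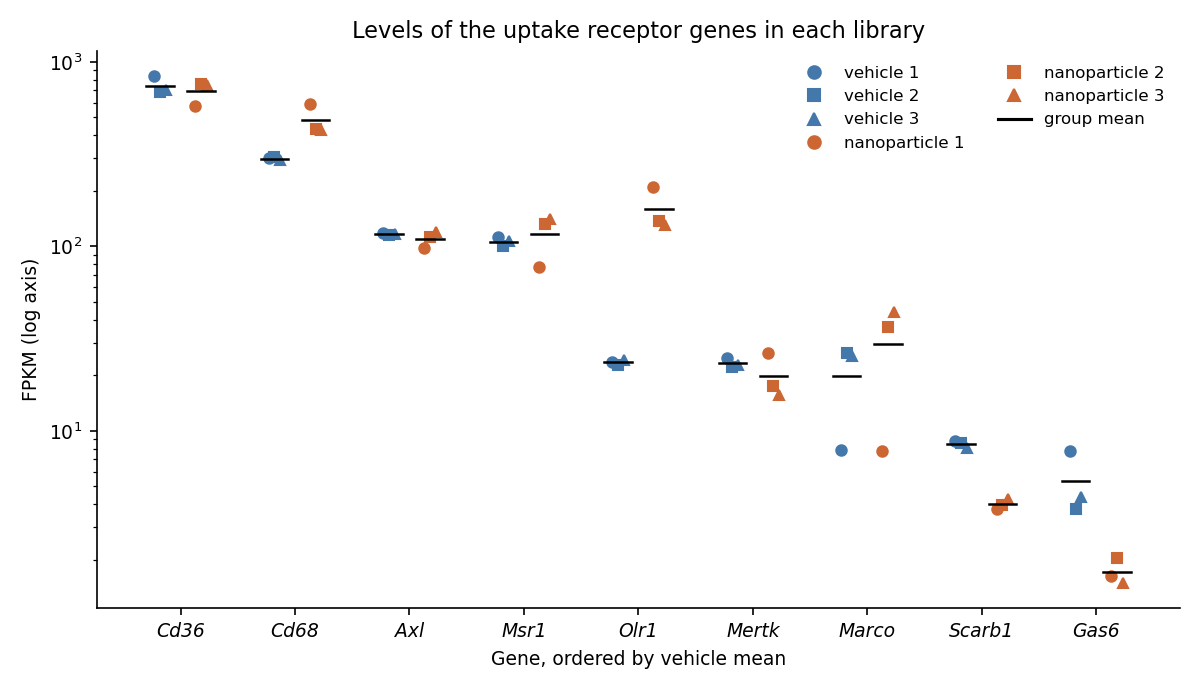
Level of each gene in every library, in FPKM on a log axis, with genes ordered by their vehicle mean. Blue symbols are vehicle and orange symbols nanoparticle libraries, symbol shapes give the library number, and black bars are group means (n = 3). Olr1 and Cd68 lie higher and Scarb1 and Gas6 lower in all nanoparticle libraries, while library 1 of both groups is low for Marco.

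Scarb1 (ENSMUSG00000037936, chromosome 5, 125277087 to 125341094, minus strand) encodes SR-BI, the class B receptor that takes up cholesteryl ester from high density lipoprotein. Its values were 8.76, 8.59 and 8.13 FPKM in vehicle libraries and 3.76, 3.96 and 4.27 FPKM in nanoparticle libraries. Libraries within each group lay close together, and the groups were well apart. Scarb1 fell from 8.49 ± 0.330 to 3.996 ± 0.255 FPKM, a log2 change of -0.93 (SE 0.0915, adjusted p by limma 7.5e-04). The call held without each library in turn, at adjusted p of 8.1e-05 to 0.0088.

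Cd36 (ENSMUSG00000002944, chromosome 5, 17781690 to 17888801, minus strand), the fatty acid translocase and the other class B receptor, was the most abundant of the 9 genes in both groups. It was at 838, 687 and 707 FPKM in vehicle libraries and at 578, 756 and 747 FPKM in nanoparticle libraries, so the groups overlapped. Its log2 change was -0.11 (SE 0.177, 95% interval -0.53 to 0.32, adjusted p by limma 0.687), and 0.02 without nanoparticle library 1. With equal sums of FPKM it became -0.58 (adjusted p by limma 0.0128), where the median of all genes moved to -0.38.

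The class B receptors were compared with each other within each library, as their plain ratio does not depend on the library scale. Cd36 was 95.6, 79.9 and 87.0 times the level of Scarb1 per kilobase in vehicle libraries and 154, 191 and 175 times in nanoparticle libraries. The log2 ratio, with 1 FPKM added to both genes, rose from 6.29 ± 0.131 to 7.11 ± 0.167 with no overlap between groups. The added 1 FPKM leaves some dependence on the scale. The difference between groups was 0.82 with it and 0.96 with 0.1 FPKM added instead. The exact permutation test gave p = 0.1 (two-sided, Benjamini-Hochberg adjusted p = 0.3 over 3 ratios), which is the smallest p that 3 libraries against 3 allow.

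Msr1 (ENSMUSG00000025044, chromosome 8, 39581685 to 39642673, minus strand) encodes the class A scavenger receptor CD204. It had 112, 100.0 and 107 FPKM in vehicle libraries, and 76.9, 132 and 142 FPKM in nanoparticle libraries. Nanoparticle library 1 lay below all vehicle libraries and libraries 2 and 3 above them. With all libraries the log2 change was 0.09 (SE 0.243, 95% interval -0.50 to 0.68, adjusted p by limma 0.810). Without nanoparticle library 1 Msr1 was higher, at a log2 change of 0.36 (SE 0.0662, adjusted p by limma 0.0032). The direction also turned with the scaling, to -0.25 relative to total reads and -0.38 with equal sums of FPKM. The median of all genes moved to -0.28 and -0.38 under these scalings. Summed dendritic cell markers were likewise lowest in nanoparticle library 1, at 3451 FPKM. They were at 7125 and 7778 FPKM in the other nanoparticle libraries and 6151 to 6591 FPKM in vehicle. Of 10 tested dendritic cell markers, 1 rose and 3 fell with nanoparticles, beside 17% and 16.2% of all tested genes. Most of the sum in nanoparticle library 1 was Cd74. Summed macrophage markers were also lowest in that library, at 12424 FPKM. They were at 16725 and 18208 FPKM in the other nanoparticle libraries and 15108 to 16459 FPKM in vehicle. Most of this sum was Lyz2. Of 10 tested macrophage markers, 3 rose and 5 fell with nanoparticles, beside 17% and 16.2% of all tested genes. Summed neutrophil markers were lowest in nanoparticle library 1 too, at 185 FPKM. Of 4 tested neutrophil markers, 2 rose and 1 fell with nanoparticles, beside the same shares of all tested genes. The part of these markers in the Msr1 value was not tested.

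Marco (ENSMUSG00000026390, chromosome 1, 120474538 to 120505024, minus strand), the macrophage receptor with collagenous structure that binds bacteria and inhaled particles, was low in library 1 of both groups and higher with nanoparticles in libraries 2 and 3. It was at 7.90, 26.5 and 25.4 FPKM in vehicle libraries 1 to 3 and at 7.79, 36.4 and 44.1 FPKM in nanoparticle libraries 1 to 3. Library 1 was the low library in both groups, with 303 reads (95% Poisson interval 270 to 339) against 1010 and 1021 in vehicle, and 245 reads (215 to 278) against 1159 and 1635 with nanoparticles. These intervals cover counting error only. Marco had the widest spread of the 9 genes, with a coefficient of variation of 52.3% in vehicle and 65.0% in nanoparticle libraries. Its log2 change was 0.40 (SE 0.733, 95% interval -1.37 to 2.17, adjusted p by limma 0.715). Without nanoparticle library 1 the log2 change was 1.14 (SE 0.479, adjusted p by limma 0.0753). Without library 1 of both groups, a choice made after its values were seen, the log2 change was 0.61 (SE 0.103, adjusted p by limma 0.0051).

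Within libraries, the log2 ratio of Marco to Msr1 was -2.53 ± 0.992 in vehicle and -2.21 ± 0.813 with nanoparticles (exact permutation p = 0.5, adjusted p = 0.7). The difference between the class A receptors in their response was therefore within the spread of the libraries.

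Mertk (ENSMUSG00000014361, chromosome 2, 128698956 to 128802894, plus strand) was at 24.8, 22.2 and 22.9 FPKM in vehicle libraries and at 26.3, 17.6 and 15.7 FPKM in nanoparticle libraries. Here nanoparticle library 1 was the highest of all libraries and libraries 2 and 3 were the lowest, the opposite of Msr1. The log2 change was -0.25 (SE 0.194, 95% interval -0.72 to 0.22, adjusted p by limma 0.367). Its span overlaps Gm14011 and Gm23172, which averaged under 1 FPKM in both groups and were not tested. Without nanoparticle library 1 Mertk was lower, at -0.46 (SE 0.0761, adjusted p by limma 0.0021).

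Axl (ENSMUSG00000002602, chromosome 7, 25757273 to 25788705, minus strand) was the more abundant TAM kinase, at 118, 115 and 117 FPKM in vehicle libraries and 98.5, 112 and 120.2 FPKM in nanoparticle libraries. The groups overlapped, and the vehicle libraries differed by a coefficient of variation of 1.01%. The log2 change was -0.09 (SE 0.119, 95% interval -0.37 to 0.20, adjusted p by limma 0.622), and -0.01 without nanoparticle library 1. Axl was called lower only under other scalings, at -0.43 relative to total reads (adjusted p by limma 0.0203) and -0.55 with equal sums of FPKM (adjusted p by limma 0.0032). There the median of all genes moved to -0.28 and -0.38.

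Axl was 4.74, 5.19 and 5.12 times the level of Mertk in vehicle libraries and 3.75, 6.36 and 7.65 times in nanoparticle libraries. The spread of this ratio was wider with nanoparticles, and the groups overlapped (mean log2 ratio 2.28 ± 0.0678 and 2.44 ± 0.514, exact permutation p = 0.7, adjusted p = 0.7). The third TAM kinase, Tyro3, was low in vehicle (3.64 ± 0.0985 FPKM) and fell to 1.48 ± 0.321 FPKM (log2 change -0.91, adjusted p by limma 0.0023). The added 1 FPKM understates this change, and limma-voom on the recovered reads gave -1.31. Tyro3 was named after its values were seen.

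Gas6 (ENSMUSG00000031451, chromosome 8, 13465374 to 13494490, minus strand), the vitamin K dependent ligand of the TAM kinases, had the lowest level of the 9 genes in both groups. It stood at 7.82, 3.76 and 4.40 FPKM in vehicle libraries, from 397, 190 and 234 reads, and at 1.63, 2.04 and 1.51 FPKM in nanoparticle libraries, from 68, 86 and 74 reads. Vehicle library 1 was the highest, and all nanoparticle libraries lay below all vehicle libraries. Gas6 fell from 5.33 ± 2.18 to 1.73 ± 0.278 FPKM, a log2 change of -1.17 (SE 0.240, adjusted p by limma 0.0119). The call held without each library in turn (adjusted p = 0.0082 to 0.0375), and without vehicle library 1 the log2 change was -0.90. The added 1 FPKM understates the change of such a low gene: limma-voom on the recovered reads gave -1.56 (SE 0.358, adjusted p by limma 0.0161).

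**Figure D2:**
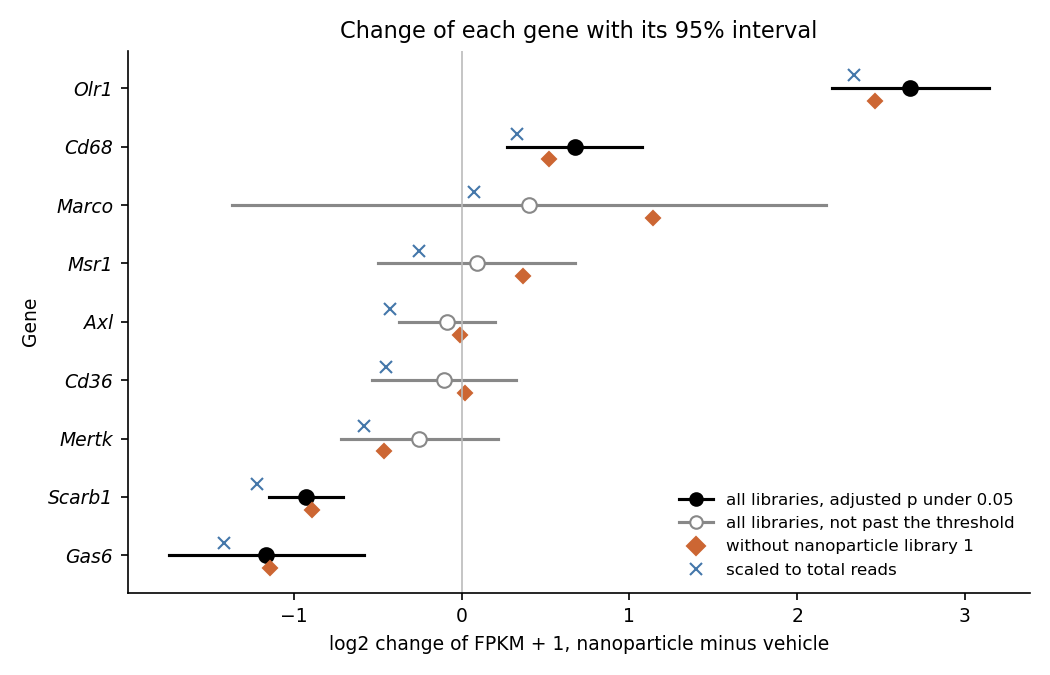
Log2 change of FPKM + 1 for each gene, nanoparticle minus vehicle, with circles for all libraries, lines for the 95% interval, diamonds for the value without nanoparticle library 1 and crosses for scaling to total reads. Filled circles passed an adjusted p of 0.05, which are Olr1, Cd68, Scarb1 and Gas6, and the interval of Marco, from -1.37 to 2.17, is the widest.

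**Figure D3:**
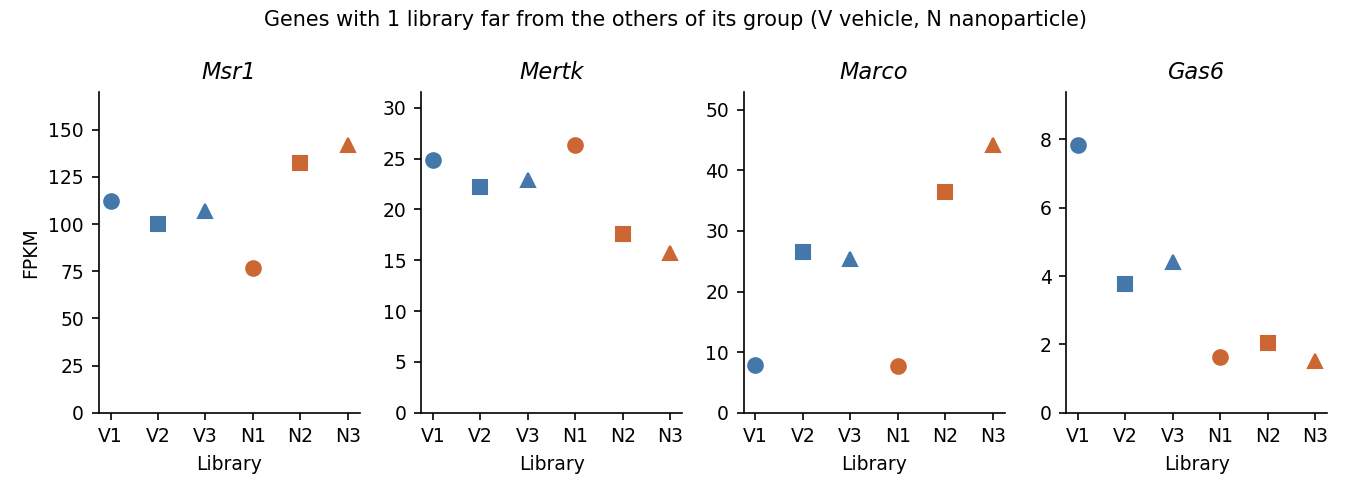
FPKM of Msr1, Mertk, Marco and Gas6 in each vehicle (V) and nanoparticle (N) library on axes that start at 0. Nanoparticle library 1 is the lowest for Msr1 and the highest for Mertk, library 1 of both groups is low for Marco, and vehicle library 1 is the highest for Gas6.

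The number of called members moved with the settings, and so did the background. Without nanoparticle library 1, 3 members were higher (Cd68, Msr1 and Olr1) and 3 lower (Gas6, Mertk and Scarb1), beside 64.8% of all genes (34.3% higher, 30.5% lower). Leaving out library 1 of both groups added Marco to the higher ones, beside 57.2% (30.9% and 26.3%). Scaled to total reads, 1 member was higher and 3 were lower, beside 44.2% (10.4% and 33.8%), and with equal sums of FPKM 1 was higher and 4 were lower, beside 48.6% (8.25% and 40.3%). Of all genes, 32.5% passed with a pseudocount of 0.1, 14.4% with no filter, 38.6% with a filter at 5 FPKM, 33.3% without the trend, 26.1% with the replicate block and 33.6% with limma-voom. Leaving out vehicle libraries 1, 2 and 3 gave 20.8%, 20.5% and 20%, and leaving out nanoparticle libraries 2 and 3 gave 26.3% and 30.4%.

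In vehicle libraries the order of levels per kilobase was Cd36, Cd68, Axl, Msr1, Olr1, Mertk, Marco, Scarb1 and Gas6. The ranges of neighbours in this order overlapped for Olr1 and Mertk, Mertk and Marco, and Marco and Scarb1, and were separate for the other neighbours. With nanoparticles the order was Cd36, Cd68, Olr1, Msr1, Axl, Marco, Mertk, Scarb1 and Gas6. Overlapping neighbours were then Cd36 and Cd68, Olr1 and Msr1, Msr1 and Axl, and Marco and Mertk. The coefficient of variation was below 6% in vehicle for 6 of the genes, the exceptions being Cd36 (11.04%), Gas6 (41.0%) and Marco (52.3%).

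The genes most alike in pattern were sought for the members with the largest rise and fall, by Pearson's r of log2(FPKM + 1) over the 6 libraries among genes with at least 5 FPKM in the higher group. For Olr1 they were Casp4 (r = 0.9997), an inflammatory caspase, Oasl2 (r = 0.9996), an interferon-inducible gene, and Ddx24 (r = 0.9996), an RNA helicase. Each shares the separation of the groups with Olr1, which sets most of r. For Gas6 they were Adam9 (r = 0.995), Colec12 (r = 0.984) and Mavs (r = 0.980), of which Adam9 itself did not pass the test (log2 change -0.22, adjusted p by limma 0.131).

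Olr1 lies in a cluster of C-type lectin-like receptor genes on chromosome 6, and its neighbours, taken after the rise of Olr1 was seen, did not share that rise. Of 6 genes within 100 kb of it that limma tested, 0 were higher and 3 were lower, where 17% and 16.2% of all genes were. At an unadjusted p under 0.05, 0 were higher, and limma-voom called 0 higher. Clec7a, the beta-glucan receptor Dectin-1, averaged 492 ± 8.16 FPKM in vehicle libraries and 559 ± 61.4 FPKM in nanoparticle libraries (log2 change 0.18, adjusted p by limma 0.378). Gabarapl1, on the other side of Olr1, gave a log2 change of 0.37 (adjusted p by limma 0.170), and Clec1b one of -0.27 (adjusted p by limma 0.249). Clec1a (log2 change -1.32, adjusted p by limma 0.0065) and Clec9a (-0.97, adjusted p by limma 0.0414) fell, as did Gm43914 (-0.87, adjusted p by limma 0.0129), whose span lies within that of Clec9a on the same strand, so that reads of the pair may not be told apart.

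**Figure D4:**
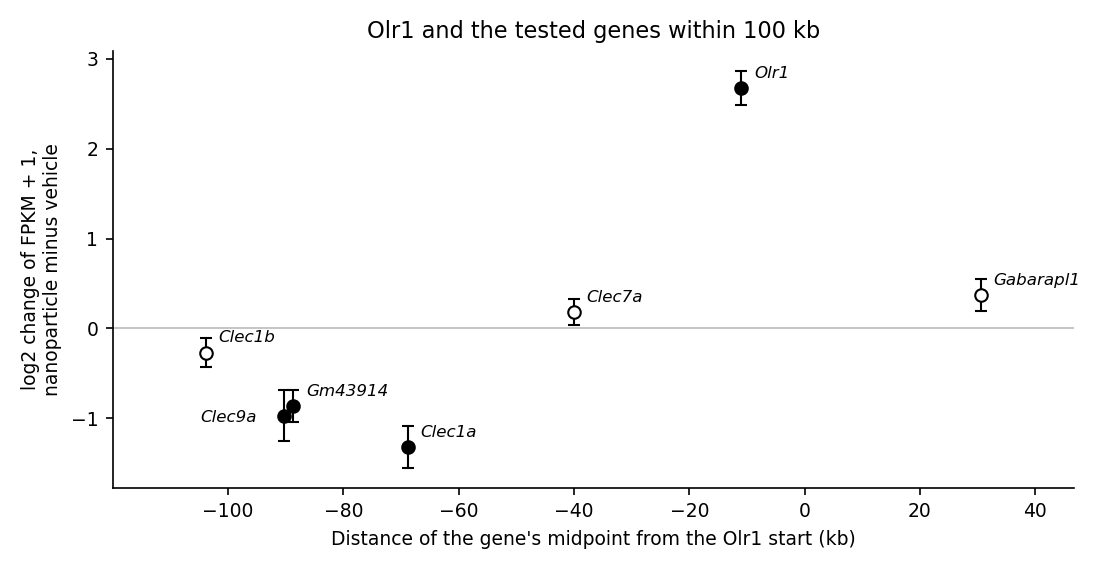
Log2 change of FPKM + 1 (nanoparticle minus vehicle, bars give SE, n = 3 per group) of Olr1 and the 6 tested genes within 100 kb, against the distance of each gene's midpoint from the Olr1 start in kb. Filled circles passed an adjusted p of 0.05; Olr1 at 2.68 is the single gene that rose, and Clec1a, Clec9a and Gm43914 lie below 0.

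Other scavenger receptors went both ways. Of 17 listed, 16 had values and 8 were tested, of which 3 rose and 3 fell (beside 17% and 16.2% of all tested genes), with a median log2 change of -0.28. Cxcl16, a membrane-bound chemokine that also acts as a scavenger receptor for oxidized lipoprotein, rose from 20.1 ± 1.38 to 194 ± 32.4 FPKM (log2 change 3.20, adjusted p by limma 7.1e-05). Scarf1, a class F receptor, rose from 9.70 ± 0.363 to 29.98 ± 7.67 FPKM (log2 change 1.502, adjusted p by limma 0.0021). Scarb2, the lysosomal relative of Cd36 and Scarb1, rose by 0.47 on the log2 scale (adjusted p by limma 0.0111; 0.283 when scaled to total reads). The mannose receptor Mrc1 fell by 2.84 and the collectin Colec12 by 0.74 on the log2 scale (adjusted p by limma 0.0027 and 0.0113). The third to fall was Stab1 (log2 change -0.93, adjusted p by limma 0.0039), named after its values were seen. It is a low gene whose change the added 1 FPKM understates, and limma-voom gave -1.38.

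Next came the receptors and bridging molecules that recognise phosphatidylserine. Of 21 listed genes 16 were tested with limma, of which 0 rose and 8 fell (beside 17% and 16.2% of all tested genes), with a median log2 change of -0.67. At an unadjusted p under 0.05, 1 was higher, and limma-voom called 0 higher. Without nanoparticle library 1, 2 rose and 10 fell, where 34.3% of all tested genes rose and 30.5% fell. Pros1, the other TAM ligand, fell from 25.5 ± 1.63 to 8.12 ± 4.31 FPKM, with 3.24, 11.4 and 9.75 FPKM in nanoparticle libraries 1 to 3 (log2 change -1.68, adjusted p by limma 0.0197). Its call was lost without vehicle library 1, 2 or 3 (adjusted p up to 0.0730), while without nanoparticle library 1 the adjusted p was 5.5e-05. The complement genes C1qa and C1qb, whose product bridges dying cells to phagocytes, fell by 1.78 and 1.62 on the log2 scale (adjusted p by limma 0.0048 and 0.0039). Both are also in the macrophage marker list, in which 3 of 10 tested genes rose and 5 fell, beside 17% and 16.2% of all tested genes. The integrin-binding bridge Mfge8 did not pass (log2 change -0.27, adjusted p by limma 0.301).

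The engulfment list, the cytoskeletal pathway below these receptors, had 13 tested genes of 15, of which 2 rose and 5 fell, beside 17% and 16.2% of all tested genes (median log2 change -0.16). Scaled to total reads, 1 was higher and 8 were lower, where 10.4% and 33.8% of all tested genes were. Elmo2 fell from 23.9 ± 1.15 to 6.81 ± 2.14 FPKM and Dock2, a Rac activator of leukocytes, from 27.0 ± 1.00 to 12.2 ± 0.739 FPKM (adjusted p by limma 0.0017 and 5.0e-04). Rhog, the small GTPase upstream of Elmo proteins, rose from 87.4 ± 2.69 to 155 ± 24.1 FPKM (log2 change 0.81, adjusted p by limma 0.0075). Vav1 rose by 0.46 on the log2 scale (adjusted p by limma 0.0132), a call lost when scaled to total reads (adjusted p = 0.306). Rac1 itself was not past the threshold (log2 change -0.13, adjusted p by limma 0.523).

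Among inhibitory signals of uptake, 2 of 5 tested genes rose and 1 fell, beside 17% and 16.2% of all tested genes. Cd47, the signal on a cell that restrains its own engulfment, rose from 14.1 ± 0.0811 to 45.5 ± 6.77 FPKM (log2 change 1.61, adjusted p by limma 3.3e-04). Its receptor Sirpa was at 199 ± 7.57 and 224 ± 2.89 FPKM (log2 change 0.18, adjusted p by limma 0.269). Pirb, an inhibitory receptor for MHC class I, rose by 0.58 on the log2 scale (adjusted p by limma 0.0066; 0.0828 when scaled to total reads), and Cd24a fell by 1.16 (adjusted p by limma 0.0438).

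Of the proteases that shed TAM receptors and the inhibitors that TAM signalling induces, 4 genes were tested, with 3 higher and 1 lower, beside 17% and 16.2% of all tested genes. The sheddase Adam17 rose from 18.4 ± 0.704 to 31.6 ± 6.52 FPKM and the related Adam10 fell from 30.2 ± 1.52 to 13.98 ± 1.4997 FPKM (adjusted p by limma 0.0179 and 9.8e-04). The Adam17 call was lost when scaled to total reads (adjusted p = 0.0835). The cytokine signalling inhibitors Socs1 and Socs3 rose by 2.27 and 2.33 on the log2 scale (adjusted p by limma 3.8e-04 and 4.1e-04).

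Nuclear receptors and lipid genes, which include known regulators of Mertk, Cd36 and Scarb1, had 14 tested genes of 14, with 4 higher and 3 lower, beside 17% and 16.2% of all tested genes (median log2 change -0.07). Scaled to total reads, limma called 0 higher (1 at an unadjusted p under 0.05) and 5 lower, where 10.4% and 33.8% of all tested genes were. Pparg, the fatty acid receptor that drives Cd36 in macrophages, fell from 6.51 ± 0.771 to 1.42 ± 0.736 FPKM (log2 change -1.68, adjusted p by limma 0.0033). Rxra, its partner, fell by 1.07 and the cholesterol exporter Abcg1 by 0.85 on the log2 scale (adjusted p by limma 5.4e-04 and 0.0021). Plin2, a coat protein of lipid droplets, rose from 82.5 ± 4.63 to 150 ± 29.8 FPKM (adjusted p by limma 0.0094), and Abca1 and Nr1h2 rose by 0.95 and 0.44 on the log2 scale (adjusted p by limma 0.0470 and 0.0163). At that scaling the adjusted p was 0.0538 for Plin2, 0.128 for Abca1 and 0.377 for Nr1h2.

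Fewer of all genes passed with 1 vehicle library left out (20% to 20.8%, against 33.2%), and several of these calls were lost. Those of Scarb2, Vav1, Cd24a, Adam17, Nr1h2 and Abca1 were lost without vehicle library 1, 2 or 3, with adjusted p by limma up to 0.0718, 0.0757, 0.133, 0.0757, 0.0937 and 0.141. Those of Adam17, Nr1h2 and Abca1 were also lost without nanoparticle library 2. Plin2 lost its call without vehicle library 2 or 3 (adjusted p up to 0.0513). Besides these and Pros1, the genes named by the rule from these lists passed without each library in turn.

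**Figure D5:**
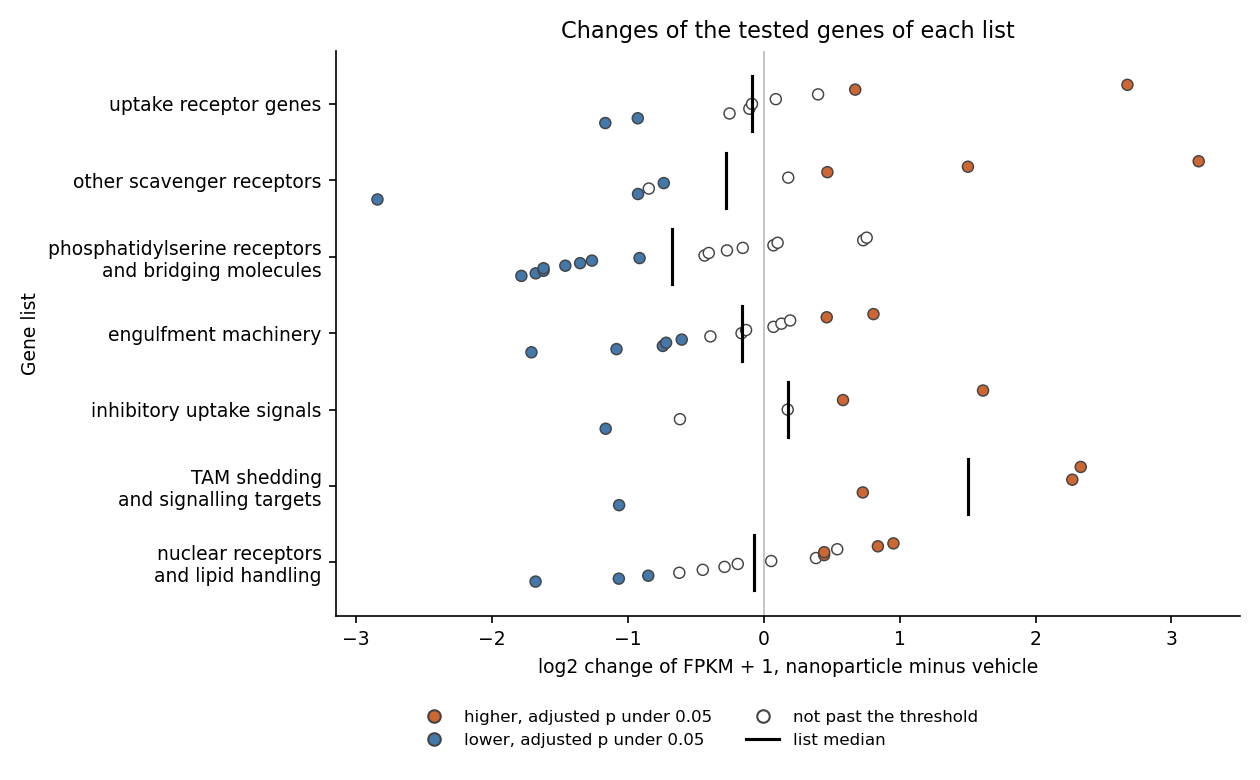
Log2 change of FPKM + 1, nanoparticle minus vehicle, of every tested gene of each list (n = 3 libraries per group). Orange circles are genes higher and blue circles genes lower at an adjusted p under 0.05, open circles did not pass and black lines are list medians, which run from -0.67 for phosphatidylserine receptors and bridging molecules to 1.4995 for TAM shedding and signalling targets.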

How the data were processed

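RNA sequencing libraries of mouse bone marrow derived dendritic cells (3 vehicle, 3 nanoparticle, 1 µg of total RNA each) were grouped by their titles. The authors deposited 2 tables with identical values (140388 values each). The deposited values were read as FPKM, which neither header nor label states. The submitters' processing notes name CASAVA, STAR 2.5, HTSeq, edgeR 3.16.5 and DESeq2 and the builds hg19 and mm10, without roles. How strand and reads shared between genes were handled is not given in the sources used here.

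Dividing out exon length (GENCODE M21, exons merged) and library scale turned 95.8% to 96.1% of nonzero values into whole reads (within 0.01), including those of all 9 members. For 600 of 610 other genes with at least 1 FPKM, another length gave whole reads. The recovered library scales matched median-of-ratios size factors and not read totals, so that a common shift of many genes is not visible.

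Genes reaching 1 FPKM in 3 or more libraries were fitted with limma 3.58.1 (R 4.3.3) on log2(FPKM + 1), with group as the single term and a mean-variance trend. The procedure was also run on simulated data. The simulated libraries all had the same spread and none stood apart as nanoparticle library 1 does, so nothing is concluded from that run here. The tests of single values used exact permutation in scipy 1.17.1. Named genes were at most 3 per list and direction, past the threshold, with groups that do not overlap and a larger group mean of 5 FPKM or more. Mfge8, Rac1, Sirpa, Tyro3 and Stab1 and the neighbours of Olr1 fall outside this rule and were chosen after their values were seen. The members and lists were chosen with earlier results of these data known. Cd163l1, Twist1 and Twist2 were not analysed here. Whether the replicate numbers pair the libraries is not known, and the main fit did not use them. Alternatives covered the pseudocount, filter, scaling, trend, replicate block, each library left out and, added after the data were seen, limma-voom and leaving out library 1 of both groups.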

Additional observations from a re-analysis of the deposited data

How the results depend on the processing

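Olr1, Scarb1 and Gas6 kept their direction and stayed past the threshold in all alternatives in which they were tested (15, 15 and 14). With 3 libraries per group, 1 library can decide a call. Over all genes 3550 passed, 2141 to 6923 when each library was left out in turn and 6107 without library 1 of both groups. The higher members were 2, and 1 to 3 without each library in turn. They were 1 (Olr1) with no filter, with either other scaling and with the replicate block, and 4 without library 1 of both groups. The lower members were 2, and 2 to 3 without each library in turn, but 4 with equal sums of FPKM and 1 with a filter at 5 FPKM, where Gas6 was not tested. Scaling to total reads moved the split of all genes from 1817 higher and 1733 lower to 1108 and 3613, and equal sums of FPKM to 881 and 4306. The replicate block gave 2785 genes. Whether the replicate numbers pair the libraries is not known. The deviations of libraries with the same number correlated at 0.07, 0.11 and -0.06. The nanoparticle library most alike had the same number for replicates 1 and 2, and was library 1 for replicate 3. Under the block Cd68 lost its call (log2 change 0.67, adjusted p by limma 0.0666) and no other member's call changed. The SE of Marco went from 0.733 to 0.191 under the block (log2 change 0.40, adjusted p by limma 0.191).

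Msr1 turned from 0.09 to -0.38 with equal sums of FPKM and -0.25 with total reads. The median of all genes moved to -0.38 and -0.28 under these scalings. Msr1 ran from -0.073 to 0.36 when each library was left out, below 0 without nanoparticle library 2 or 3. Marco turned from 0.40 to -0.050 with equal sums of FPKM and ran from -0.13 to 1.14 (without nanoparticle library 1), below 0 without vehicle library 1 (-0.13) or nanoparticle library 3 (-0.038). Cd36 turned from -0.11 to 0.11 without library 1 of both groups and ran from -0.17 to 0.020, above 0 without nanoparticle library 1. The difference in log2 ratio of Axl to Mertk, 0.17, ran from -0.043 to 0.45, below 0 without nanoparticle library 3. That of Marco to Msr1, 0.31, ran from -0.26 to 0.78, below 0 without vehicle library 1. The cause of these turns was not tested. The fewest reads behind a member value were 68, for Gas6 in nanoparticle library 1.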

Other observations

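In 11 of 10682 tested genes, library 1 lay under 50% of both other libraries in vehicle and with nanoparticles, and in 9 genes it lay above 2 times both others. Beside Marco, the 11 genes, found after the values of Marco were seen, were Gm8430, mt-Tt, Gm10180, Lsm5, Rps25-ps1, Gm27702, Ereg, Gm4045, Kcp and Cpa3. Several of these rested on few reads. In library 1 of vehicle and nanoparticles, Cpa3 had 3 and 2 reads, mt-Tt 5 and 1, Gm10180 1 and 3, and Gm27702 0 and 0. Gm4045 had 2 and 4 reads there, Lsm5 7 and 8, and Rps25-ps1 8 and 10. Ereg had 0, 5 and 1 reads in vehicle libraries 1 to 3. Gm8430 had 91 and 84 reads in library 1 of vehicle and nanoparticles, and Kcp 121 and 47.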
